A study of Papio anubis with 28 samples.

Results

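The genes described here are the 6 umbrella cell genes UPK1A, UPK1B, UPK2, UPK3A, SNX31 and PSCA, followed by symbol through a table of read counts from the bladders of olive baboons (Papio anubis). They are 6 of the 27533 genes in that table. All 6 passed the filter on low counts, which left 17177 genes for testing. RNA of 14 wild-type animals was sequenced in 28 libraries, a piece of native bladder and a piece of the augmenting graft from each. The 5 animals of the Entero arm had received ileum, an operation called enterocystoplasty. The 5 animals of the SIS arm and the 4 of the PRS arm had received scaffolds carrying marrow-derived cells, mesenchymal stem cells together with CD34+ haematopoietic stem and progenitor cells, and the sampled graft of these arms is called regenerated tissue. The native bladder of these arms came from animals that carried such a graft as well, and the native bladder of the Entero arm from animals that carried ileum. The sources used here do not say what PRS stands for, how old the animals were, when after surgery tissue was taken, or from where in a graft. Ungrafted ileum and the bladder of an animal without surgery were not analysed here.

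The urothelium is the layered epithelium that lines the bladder, and its outermost umbrella cells seal it against urine. Their apical membrane is stiffened by plaques built of uroplakins. The tetraspanins UPK1A and UPK1B pair with the single-pass proteins UPK2 and UPK3A, UPK1A with UPK2 and UPK1B with UPK3A, and the pairs leave the endoplasmic reticulum before they assemble into plaques. SNX31 is a sorting nexin that associates with uroplakins on their way to degradation. PSCA is a small GPI-anchored surface protein of the Ly6 family that is abundant in superficial urothelium.

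Library totals ran from 20975648 to 35669026 counts. Levels are in CPM, counts brought to one common total with TMM-adjusted library sizes, and animals are named by arm and number. Markers of the labelled tissues were checked first. The 7 matched markers of intestinal epithelium summed to between 2195 and 9692 CPM in the ileum grafts and to at most 202 CPM in each of the other 23 libraries. The amount of muscle differed widely between pieces of 1 group: the 6 matched smooth muscle markers summed to between 2688 and 87573 CPM over those 23 libraries. In whole tissue, fewer umbrella cells and less RNA per umbrella cell cannot be told apart.

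In native bladder all 6 genes were expressed in each of the 14 libraries, and they varied by more than an order of magnitude between animals. Per kilobase of deposited gene length, PSCA had the highest median over the 14 libraries at 8889 CPM per kb. UPK3A and UPK1A followed at 1129 and 1126 CPM per kb, UPK2 stood at 526, UPK1B at 361 and SNX31 at 72.6 CPM per kb. On this scale, which rests on the deposited lengths, the partners in a plaque were not at equal transcript levels, UPK1A being above UPK2 and UPK3A above UPK1B.

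UPK1A reached 527, 721, 2259, 153 and 1022 CPM in Entero native bladders 1 to 5. It reached 1868, 1891, 1175, 70.3 and 357 CPM in SIS native bladders 1 to 5, and 498, 2206, 1619 and 168 CPM in PRS native bladders 1 to 4. Each arm held both high and low animals, and the 3 sets of native bladders overlapped throughout. The lowest of the 14 values was 70.3 CPM and the highest 2259 CPM, a ratio of 32.1. The same ratio was 41.0 for UPK1B, 39.2 for UPK2, 29.1 for UPK3A, 26.5 for SNX31 and 83.3 for PSCA. SIS native bladder 4 was the lowest of the 14 for 5 of the genes, and Entero native bladder 4 was the lowest for UPK1B at 13.99 CPM. Their smooth muscle markers summed to 87573 and 77615 CPM. PRS native bladder 2 had a sum of 71471 CPM and the second highest UPK1A level of all native bladders, and the part of muscle content in the spread of the 6 genes was not tested. None of the 6 was called between the native bladders of any pair of arms (0.00% of the genes tested were called in each of these 3 comparisons by edgeR's quasi-likelihood test with Benjamini-Hochberg adjustment). At an unadjusted p under 0.05, 4.14% of the genes tested passed for SIS against Entero, 2.15% for PRS against Entero and 7.02% for PRS against SIS, with 0 of the 6 among them, and DESeq2 called 64, 28 and 114 genes, again without any of the 6. The fold changes of the 6 in these comparisons lay between -0.87 (PSCA, SIS against Entero) and 0.45 (PSCA, PRS against SIS) on the log2 scale.

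**Figure D1:**
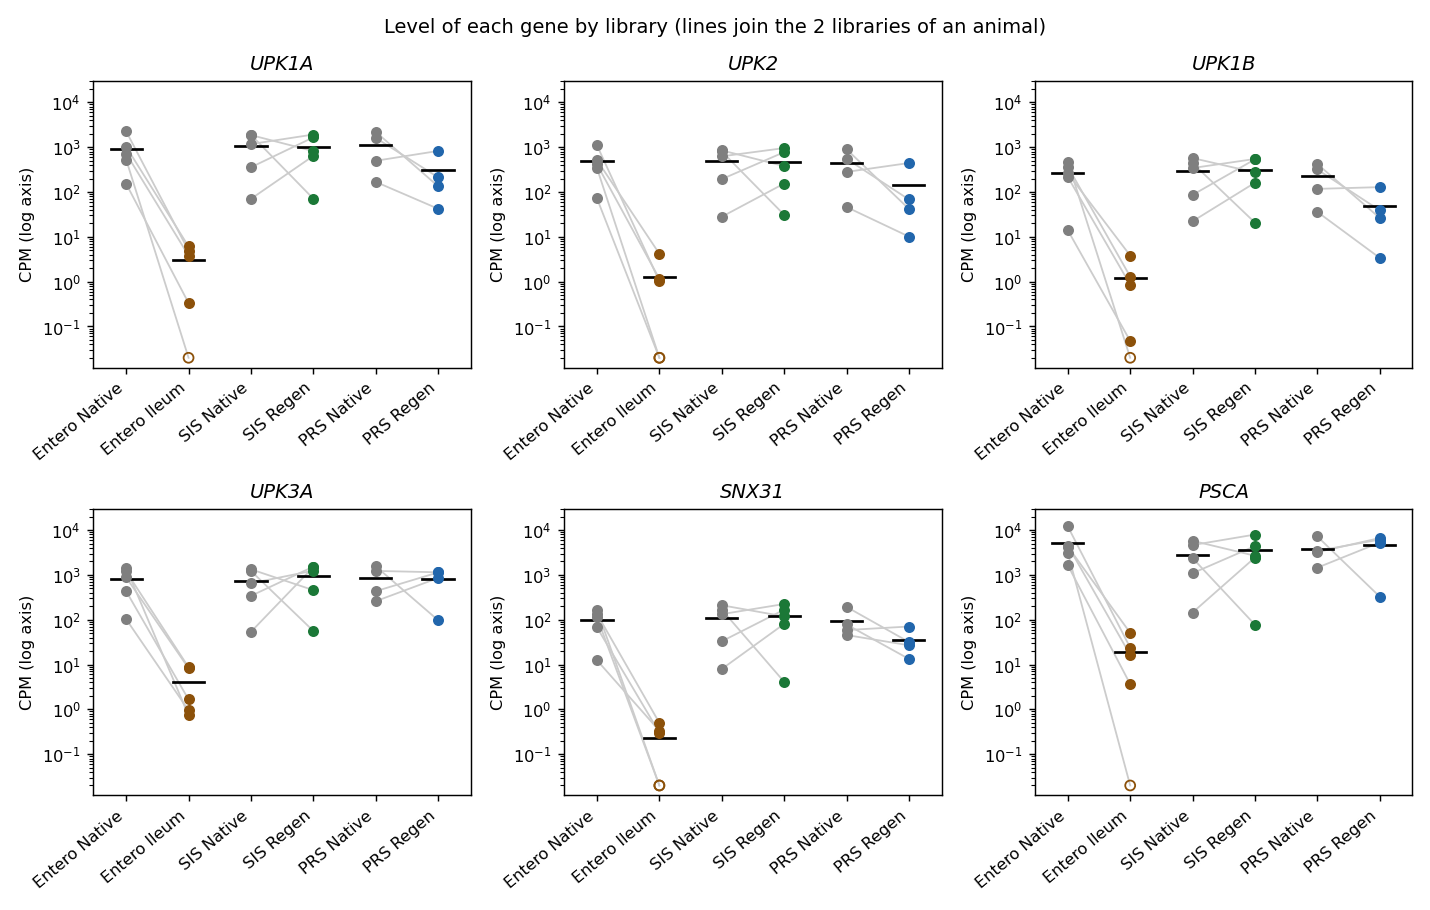
Level of each gene in every library, in CPM on a log axis, by group. Points are libraries, bars are group means, grey lines join the 2 libraries of an animal, and open points at the foot of the axis are libraries with 0 reads. Every ileum graft lies below every library of the other groups for each gene except UPK1B, where PRS regenerated piece 4 (3.39 CPM) overlaps with them. A share of all genes tested with such a separation is given only against Entero native bladder (5.86%). The gap is narrow for PSCA (50.9 CPM in ileum graft 2 and 77.5 CPM in SIS regenerated piece 2), and the other groups overlap.

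The comparison of ileum grafts with native bladder asked how far umbrella cell transcripts are lacking where bowel takes the place of bladder wall. All 6 genes fell in the ileum grafts, while 7.33% of the genes tested fell and 7.72% rose in this comparison. Every ileum library lay below every Entero native library for each of the 6, a separation toward lower levels that 5.86% of the genes tested showed. Each gene was lower in the graft of 5 of 5 animals.

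UPK1A had 0, 3.81, 4.92, 0.333 and 6.09 CPM in ileum grafts 1 to 5, a mean of 3.03 ± 2.74 CPM (SD, n = 5) against 936 ± 804 CPM (SD, n = 5) in native bladder. It fell by 8.27 on the log2 scale (SE 1.37, edgeR adjusted p = 0.000125). UPK2, its partner, had 0, 1.15, 1.02, 0 and 4.19 CPM in the grafts and fell by 8.58 (SE 1.49, adjusted p = 0.000221). Grafts 1 and 4 thus held no read of UPK2, and graft 4 held 7 reads of UPK1A.

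UPK1B had 3.82, 0.852, 0, 0.0475 and 1.298 CPM in grafts 1 to 5 and fell by 7.79 (SE 1.37, adjusted p = 0.000248). UPK3A, its partner, had 1.66, 8.27, 0.730, 0.951 and 8.68 CPM and fell by 7.63 (SE 1.15, edgeR adjusted p = 4.61e-05), the smallest fall of the 6. UPK3A was the only one of the 6 with reads in all 5 ileum grafts (33, 165, 15, 20 and 174 reads). The residual reads did not keep the proportions of bladder: graft 1 held 76 reads of UPK1B and none of UPK1A, UPK2, SNX31 or PSCA, and graft 3 held 101 reads of UPK1A and none of UPK1B.

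SNX31 had 0, 0.301, 0, 0.333 and 0.499 CPM in the grafts, from 10 reads at most, and fell by 8.74 (SE 1.18, edgeR adjusted p = 1.17e-05), the largest fall of the 6. Per kilobase, PSCA had the highest level of the 6 in the grafts of animals 2 to 5. It was at 0, 50.9, 23.8, 3.66 and 16.4 CPM against 3100.0, 4307, 12069, 1642 and 4532 CPM in native bladders 1 to 5. It fell by 8.08 (SE 1.42, adjusted p = 0.000235). The calls of all 6 were kept under each alternative run, with the animal as a block and without any single library among them.

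Genes that belong to the same biology fell in part. UPK3B, a uroplakin relative that also marks mesothelium, fell by 5.46 on the log2 scale. Of 7 tested genes of uroplakin transport, MAL (fell by 6.12), a raft protein of apical delivery, and SYTL2 (fell by 2.18), a Rab27 effector, were lower, RAB8A was higher at 1.11, and 4 did not pass. The list's median log2 fold change was -0.57, against -0.03 over all genes tested and -8.18 over the 6 umbrella cell genes. Of 6 other superficial and luminal urothelial genes, VSIG2, SLC14A1 and KRT7 fell by 7.54, 6.86 and 5.49, while KRT20, a keratin of umbrella cells that bowel epithelium also makes, rose by 7.45. Of 10 urothelial transcription factors, 4 fell and 6 did not pass, the lower ones being GRHL3 (-4.80), GATA3 (-4.64), FOXA1 (-3.07) and RARG (-2.71). Basal genes fell in 3 of 9 cases, with TP63 lowest at -10.12, and squamous and intermediate genes fell in 4 of 8. EPCAM, a pan-epithelial surface protein, rose by 3.36, and the other 6 of 7 general epithelial genes did not pass. Among the relatives of the members by family, LYPD3 (-5.94) and LY6D (-4.82) of the Ly6 family fell, 4 of 6 did not pass, and neither SNX17 (0.12) nor SNX27 (-0.69) passed. Of 8 other tetraspanins, TSPAN8, which bowel epithelium makes, rose by 5.91, CD9 (-1.59) and TSPAN6 (-2.47) fell, and 5 did not pass.

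**Figure D2:**
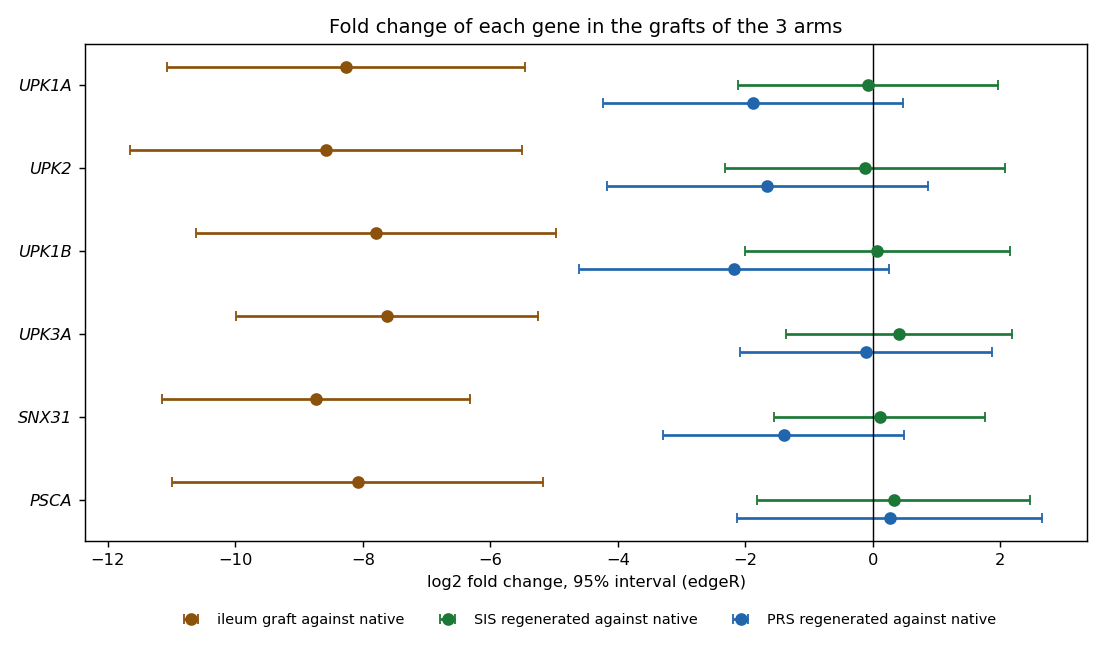
Log2 fold change of each gene in the graft against native bladder of the same arm, with its 95% interval from the edgeR fit over all 28 libraries. The intervals of the ileum grafts lie between -11.65 and -4.97, those of both kinds of regenerated tissue cross 0, and in the PRS arm UPK3A and PSCA sit near 0 while the other 4 sit between -2.18 and -1.40.

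In the SIS arm the comparison asked whether tissue regenerated on the scaffold carries umbrella cell transcripts at the level of native bladder. All 6 genes were present in all 5 regenerated pieces, at group means close to those of native bladder. None passed the test (0 of 6, with 0.00% of the genes tested called). At an unadjusted p under 0.05, 4.86% of the genes tested and 0 of the 6 passed, and DESeq2 called 70 genes, 0 of the 6 among them.

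UPK1A had 818, 71.0, 1919, 640.1 and 1658 CPM in SIS regenerated pieces 1 to 5, a mean of 1021 ± 758 CPM (SD, n = 5) against 1072 ± 841 CPM (SD, n = 5) in native bladder. Its log2 fold change was -0.07 with a 95% interval from -2.11 to 1.97. UPK2 was at -0.12, UPK1B at 0.07, SNX31 at 0.11, PSCA at 0.32 and UPK3A at 0.41. The interval of each of the 6 was several log2 units wide, from -2.32 to 2.07 for UPK2 and from -1.55 to 1.77 for SNX31.

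Within animals the 6 genes moved as a block, and the animals went opposite ways. In animals 3, 4 and 5 each of the 6 was higher in the regenerated piece than in the native one, and in animals 1 and 2 each was lower. The within-animal differences in UPK1A ran from -4.74 (animal 2) to 3.19 (animal 4) on the log2 scale, with a median of 0.71. UPK3A ran from -4.45 to 4.80 and SNX31 from -5.34 to 3.34 in the same 2 animals. The extremes came from single low pieces: in animal 2 the regenerated piece was low (UPK1A 71.0 CPM, against 1891 CPM in the native one), and in animal 4 the native piece was low (70.3 CPM, against 640.1 CPM in the regenerated one). The smooth muscle markers of these pairs moved the other way, from 11053 CPM (native) to 46676 CPM (regenerated) in animal 2 and from 87573 to 8024 CPM in animal 4, and their part in the differences was not tested. With the 6 libraries whose smooth muscle markers exceeded 60000 CPM left out, an alternative chosen after seeing the data, the count of the 6 called stayed at 0 in both regenerated arms and at 6 in the ileum grafts.

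**Figure D3:**
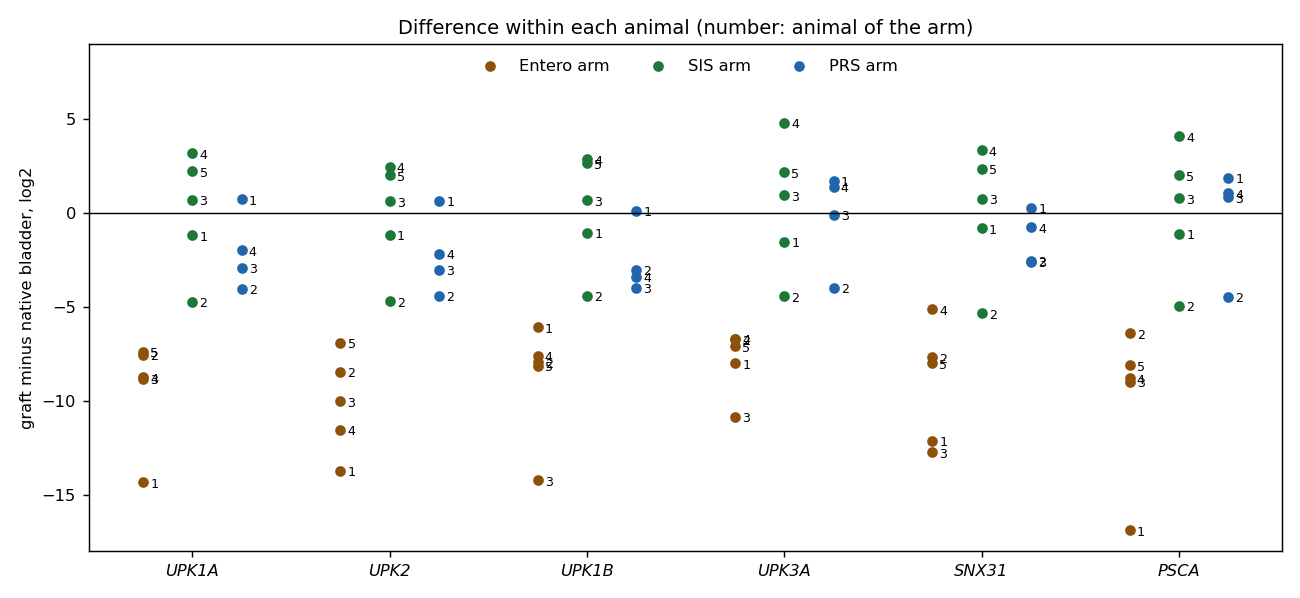
Difference between graft and native bladder of the same animal, log2 with 0.5 counts added, for each gene and arm. Points are animals, numbered within the arm. All Entero animals lie below 0, SIS animals 3 to 5 lie above and animals 1 and 2 below for each gene, and in the PRS arm animals 3 and 4 lie below 0 for UPK1A, UPK2 and UPK1B while both lie above 0 for PSCA and animal 4 does for UPK3A. Entero differences with 0 reads in the graft depend on the added count.

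In the PRS arm the regenerated tissue did not carry the 6 genes in the same proportion as native bladder in every animal. UPK1A, UPK2, UPK1B and SNX31 were lower in the regenerated piece in 3 of 4 animals, UPK3A in 2 of 4, and PSCA in 1 of 4. None of the 6 passed the test (0 of 6, with 0.00% of the genes tested called, and 3.62% at an unadjusted p under 0.05, 0 of the 6 among them). DESeq2 called 26 genes and 0 of the 6.

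UPK1A had 498, 2206, 1619 and 168 CPM in PRS native bladders 1 to 4 and 826, 135, 213 and 42.4 CPM in the regenerated pieces of the same animals. Its log2 fold change was -1.88 with a 95% interval from -4.24 to 0.47. Piece 1 was above its native bladder and the other 3 were below, and the groups overlapped. UPK2 followed it, at 281, 902, 552 and 46.3 CPM in native and 444, 42.1, 68.2 and 10.1 CPM in regenerated pieces (-1.66, 95% interval -4.18 to 0.86).

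UPK1B had 118, 318, 422 and 36.05 CPM in PRS native bladders and 129, 39.1, 26.4 and 3.39 CPM in regenerated pieces. The lowest of these came from 86 reads. Its log2 fold change was the lowest of the 6 in this arm at -2.18 (95% interval -4.60 to 0.25, unadjusted p = 0.0766). With the animal as a block it was -2.71 (95% interval -5.22 to -0.20), with an adjusted p of 1 over all genes tested.

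UPK3A, the partner of UPK1B, had 259, 1559, 1230.2 and 433 CPM in PRS native bladders and 854, 97.6, 1144 and 1136 CPM in regenerated pieces 1 to 4. Its log2 fold change was -0.11 (95% interval -2.08 to 1.87). In animals 3 and 4 the regenerated pieces were thus high in UPK3A and low in UPK1A, UPK2 and UPK1B. PSCA was high in the same pieces, at 5270.4, 328, 6139 and 6645 CPM in regenerated pieces 1 to 4 against 1451, 7216, 3446 and 3221 CPM in native bladder (0.26, 95% interval -2.13 to 2.65). SNX31 stood between, with 58.9, 78.4, 194 and 45.6 CPM in native and 70.5, 13.3, 31.9 and 26.9 CPM in regenerated pieces (-1.40, 95% interval -3.29 to 0.49). Piece 2 was low in UPK3A and PSCA as well, and its smooth muscle markers summed to 82177 CPM against 3571 to 22153 CPM in the other 3.

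The 4 libraries in which the proportions of the uroplakins departed most were 3 regenerated pieces and 1 native one. Per kilobase, UPK3A stood at 0.595 to 1.39 times UPK1A in 19 of the 23 libraries other than ileum grafts. The ratio was 2.67 in SIS regenerated piece 4, 2.94 in PRS native bladder 4, 6.13 in PRS regenerated piece 3 and 30.7 in PRS regenerated piece 4. These 4 libraries were picked out after their values were seen, and they are given as single values with no test.

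UPK1A, UPK2 and UPK1B kept to each other more closely in regenerated tissue than any of them did to UPK3A, the partner of UPK1B. The within-group SD of the log2 ratio of UPK1A to UPK2 was 0.28 over the 14 native libraries and 0.46 over the 9 regenerated ones. It was 0.61 and 0.52 for UPK1A to UPK1B, and 0.60 and 0.55 for UPK1B to UPK2, which are not partners. For UPK1B to UPK3A it was 0.77 and 2.16, for UPK1A to UPK3A 0.62 and 1.68, and for UPK2 to UPK3A 0.81 and 2.03. The genes themselves varied by 1.52 (PSCA) to 1.91 (UPK1B) in native and by 1.85 (UPK1A) to 2.41 (PSCA) in regenerated tissue. UPK3A to PSCA had an SD of 0.72 and 0.81. The 9 regenerated libraries include SIS regenerated piece 4 and PRS regenerated pieces 3 and 4, picked out above. Taken by arm, the SD of the log2 ratio of UPK1B to UPK3A was 0.94 in SIS and 3.12 in PRS regenerated pieces. For UPK1A to UPK2 it was 0.43 and 0.49. How far the SDs rest on the pieces picked out was not tested.

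In PRS regenerated pieces 1 to 4 UPK1B stood at 0.127, 0.339, 0.0195 and 0.00253 times UPK3A per kilobase, against 0.383, 0.172, 0.290 and 0.0702 in the native bladders of the same animals. The log2 ratio of UPK1B to UPK3A was lower in the regenerated pieces, with a mean difference of -2.33. This difference did not pass the test over libraries (two-sided exact permutation test, p = 0.229, adjusted p = 0.738 over 9 such tests, smallest p possible 0.0286). In the SIS arm the same difference was -0.24 (exact permutation p = 0.714), and it turned to 0.154 without regenerated piece 4. UPK1A to UPK2 differed by 0.19 in both the SIS and the PRS arm (exact permutation p = 0.492 and 0.600), and UPK1B to UPK1A by 0.10 and -0.52 (p = 0.389 and 0.314, exact permutation test). These tests leave the pairing by animal aside. Within animals, UPK1A to UPK2 was higher in the regenerated piece in 4 of 4 PRS animals, by 0.07 to 0.39, and in 3 of 5 SIS animals. An exact sign-flip test gave p = 0.125 in the PRS arm, the smallest that 4 animals allow. UPK1B to UPK3A was lower in the regenerated piece in 3 of 4 PRS animals and in 2 of 5 SIS animals (exact sign-flip p = 0.875 in the SIS arm). None of the 6 unpaired tests in the SIS and PRS arms passed. The PRS tests alone could not have passed, given their smallest possible p of 0.0286 and the adjustment over 9 tests. No paired test could pass at 0.05. The smallest p that the exact sign-flip test allows was 0.0625 in the SIS arm and 0.125 in the PRS arm. The paired tests thus decide nothing. The adjustment also counts 3 tests on ileum grafts, whose ratios are set in part by the 0.5 counts added where a gene had 0 reads, and nothing is read from those. In the PRS arm the UPK1B to UPK3A difference was -1.02 without regenerated piece 4 and -3.37 without regenerated piece 2.

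**Figure D4:**
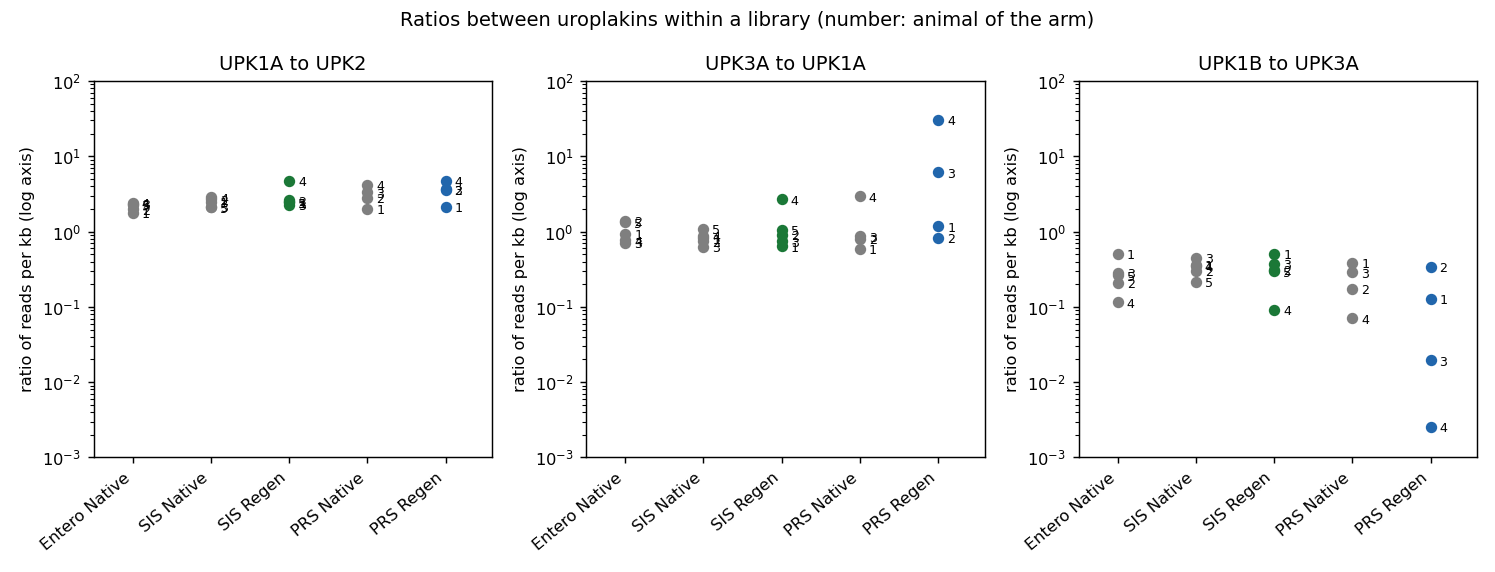
Ratios of reads per kilobase between uroplakins within each library, on a log axis, for the 5 groups other than ileum grafts. Points are libraries, numbered by animal. UPK1A to UPK2 stays between 1.77 and 4.76 in all 23, while UPK3A to UPK1A reaches 30.7 and UPK1B to UPK3A falls to 0.00253 in PRS regenerated piece 4.

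Measured against KRT7, a urothelial keratin, UPK1A was low in 3 of these 4 libraries and UPK3A was not. UPK1A per kilobase was 0.141 times KRT7 in PRS regenerated piece 4, 0.495 in PRS regenerated piece 3, 0.519 in PRS native bladder 4 and 1.54 in SIS regenerated piece 4. It was 0.407 in SIS regenerated piece 2, where the UPK3A to UPK1A ratio was 0.907, and from 1.00 to 4.20 in the other 18 libraries. UPK3A was 4.33, 3.03, 1.53 and 4.12 times KRT7 in the first 4, inside the range of 0.370 to 4.33 over the 23 libraries, of which piece 4 of the PRS arm is the top. KRT7 itself was 547, 785, 592 and 757 CPM there. MAL, the raft protein, was 18.5 CPM in PRS regenerated piece 4, the lowest of the 23 libraries, 48.0 in PRS regenerated piece 3, 72.6 in PRS native bladder 4 and 135 CPM in SIS regenerated piece 4.

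A list of 10 genes of secretory and simple epithelium was looked at after these values were seen. For 5 of them, PIGR, AGR2, EPCAM, CFTR and TSPAN8, the same 4 libraries held the 4 highest levels of the 23. For the other 5 they did not, since the lowest of the 4 was below the highest of the other 19. These 2 values were 43.2 and 79.9 CPM for MUC4, 8.25 and 14.5 CPM for SLC34A2, and 26.6 and 44.2 CPM for MSLN. They were 0.307 and 3.05 CPM for TFF3, and 0.335 and 0.384 CPM for CLDN10. The lowest was SIS regenerated piece 4 for each of these except MSLN, where it was PRS native bladder 4. The highest of the 4 lay above the other 19 for all 5 genes. It was 309 CPM for MUC4, 686 CPM for SLC34A2, 282 CPM for MSLN, 74.4 CPM for TFF3 and 46.9 CPM for CLDN10. PIGR, the receptor that carries immunoglobulins to the lumen, was at 7000 CPM in PRS regenerated piece 4, 6726 in PRS regenerated piece 3, 4268 in PRS native bladder 4 and 3838 in SIS regenerated piece 4, and at most 2192 CPM in the other 19. AGR2, a disulfide isomerase of secretory cells, was at 1723, 633, 694 and 302 CPM, against at most 148 CPM elsewhere. EPCAM was at 910.0, 934, 364 and 535 CPM, against at most 290.5 CPM elsewhere. Their intestinal epithelial markers summed to 120, 104, 56.2 and 59.6 CPM, inside the range of the other bladder libraries (6.63 to 202 CPM). TFF3 is part of that sum and was not inside the range of the other 19 in 3 of the 4. It was at 74.4, 40.03, 15.2 and 0.307 CPM, against at most 3.05 CPM in the other 19. The sum thus does not speak for each marker in it. What these transcripts have to do with the uroplakin ratio was not tested.

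**Figure D5:**
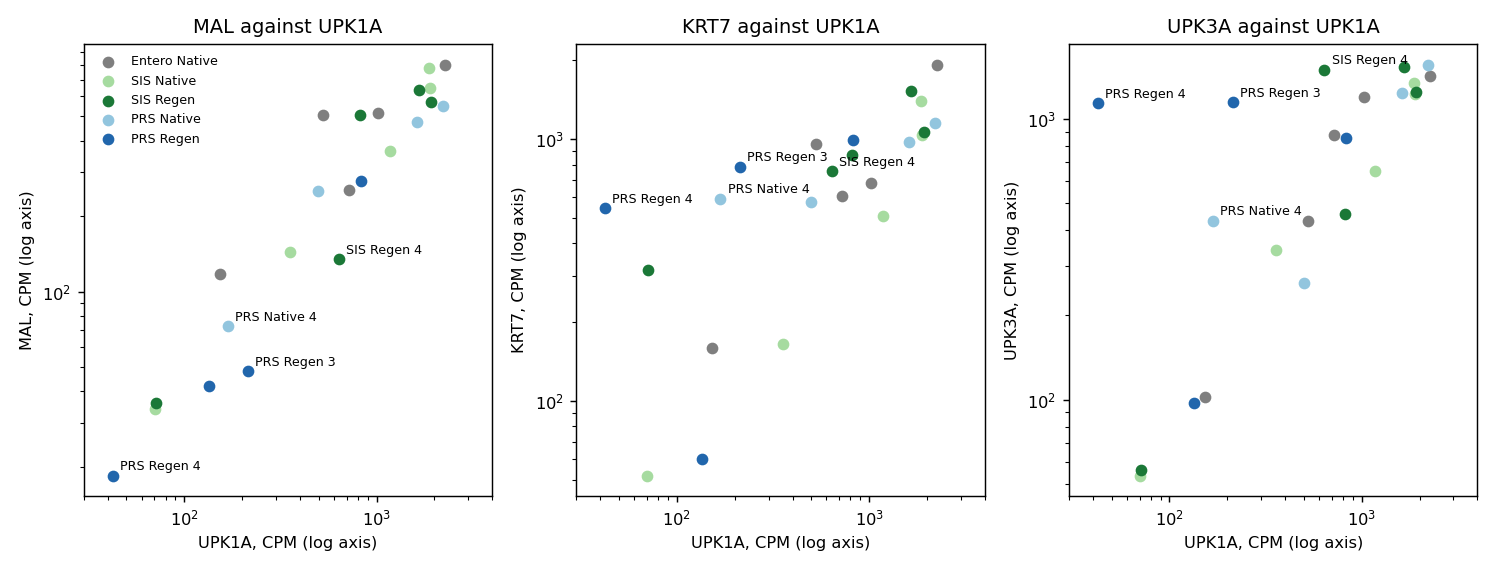
MAL, KRT7 and UPK3A against UPK1A, in CPM on log axes, in the 23 libraries other than ileum grafts, coloured by group. MAL follows UPK1A down to its lowest value of 18.5 CPM, whereas KRT7 (547 CPM) and UPK3A (1136 CPM) remain high in PRS regenerated piece 4, where UPK1A is 42.4 CPM.

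The changes of the 3 arms were then set against each other. The change from native bladder to graft was higher for all 6 genes in the SIS arm than in the Entero arm, by 7.86 (UPK1B) to 8.85 (SNX31) on the log2 scale (edgeR adjusted p from 0.000262 to 0.00300; 3.59% of the genes tested were called in this direction). In the PRS arm the change was higher than in the Entero arm for 5 of the 6 (1.56% of the genes tested), by 6.39 for UPK1A, 6.92 for UPK2, 7.34 for SNX31, 7.52 for UPK3A and 8.34 for PSCA. UPK1B, at 5.61, had an edgeR adjusted p of 0.0561. These comparisons share the Entero libraries, so they are not independent of each other.

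The result for the PRS arm depended on how it was fitted. With the animal as a block in edgeR, 2 of the 6 passed, where 1.4% of the genes tested were called in either direction. These were UPK2 (edgeR adjusted p = 0.0465) and UPK3A (edgeR adjusted p = 0.0473), and the other 4 had adjusted p from 0.0516 to 0.101. The number passing lay between 3 and 6 when single libraries were left out, with 390 to 739 of all genes tested called in either direction. UPK1A and UPK2 did not pass without Entero native bladder 3, PRS native bladder 1, PRS native bladder 4 or PRS regenerated piece 1, and UPK2 did not without PRS native bladder 3. UPK1B passed without Entero native bladder 4, ileum graft 1 or PRS regenerated piece 4. Over all alternatives run, the log2 difference was at least 5.18 for UPK1A, 5.12 for UPK2 and 4.53 for UPK1B.

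Compared directly, both kinds of regenerated tissue were above the ileum grafts for all 6 genes. SIS pieces were higher by 7.53 (PSCA) to 9.01 (SNX31), where 10.9% of the genes tested were higher, and PRS pieces by 5.36 (UPK1B) to 7.92 (PSCA), where 7.21% were. In PRS pieces UPK1B overlapped with the ileum grafts, since PRS piece 4 had 3.39 CPM and ileum graft 1 had 3.82 CPM.

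Between PRS and SIS regenerated pieces none of the 6 passed (0.00% of the genes tested were called). At an unadjusted p under 0.05, 1 of the 6 (UPK1B) and 4.44% of the genes tested passed, and DESeq2 called 15 genes, none of the 6 among them. The log2 fold changes ran from -2.64 for UPK1B (95% interval -5.05 to -0.23, unadjusted p = 0.0330, edgeR adjusted p = 1) to 0.39 for PSCA (95% interval -1.87 to 2.64). The difference between the changes of both arms was not called for any of the 6 either (0.00% of the genes tested, 3.98% and 0 of the 6 at an unadjusted p under 0.05, and 20 genes but 0 of the 6 by DESeq2). It ran from -2.25 for UPK1B (95% interval -5.41 to 0.91) to -0.06 for PSCA (95% interval -3.27 to 3.14). Ordered by group mean, every neighbouring pair of groups overlapped for each of the 6 genes, apart from the step to the ileum grafts, which overlapped only for UPK1B. A share of all genes tested that separate in this way is given only against Entero native bladder (5.86%), so nothing is read from this step.

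The related gene lists gave no call in either regenerated arm: 0 of 7 genes of uroplakin transport, 0 of 6 other superficial and luminal genes, 0 of 10 transcription factors, 0 of 9 basal genes and 0 of 8 squamous and intermediate genes passed in each. The members' median log2 fold change was 0.09 in the SIS arm and -1.53 in the PRS arm, against 0.03 and 0.02 over all genes tested. At an unadjusted p under 0.05, 3 of 9 basal genes and 2 of 8 squamous and intermediate genes passed in the SIS arm (median log2 fold changes of 1.03 and 0.74, with 4.86% of the genes tested passing), and 0 of 9 and 1 of 8 in the PRS arm (3.62% of the genes tested). For the transcription factors these counts were 1 of 10 and 2 of 10, and for uroplakin transport and the other superficial and luminal genes they were 0 in both arms. In the PRS arm GRHL3, a transcription factor that umbrella cell differentiation needs, was at -1.65 (unadjusted p = 0.0328) and MAL at -1.82 (unadjusted p = 0.0735), both with an edgeR adjusted p of 1. In the SIS arm they were at 0.11 and -0.06.

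The genes whose levels followed the uroplakins most closely were picked by Pearson's r with the mean log2 level of the 4 uroplakins over the 23 libraries other than ileum grafts, with group means taken out. This is a description over libraries that differ in their makeup of epithelium and muscle. The part of that makeup in r was not tested. The first 4 were VGLL1 (r = 0.974), a partner of TEAD transcription factors, VSIG2 (0.973), a membrane protein of the immunoglobulin superfamily, SCUBE2 (0.961), a secreted protein, and MAL (0.953). NIPAL1, GRHL3, GLDC, CAPN5, ENC1 and TANC2 followed, with r from 0.946 to 0.952. The order depended on the measure. By Spearman's rho VGLL1 and VSIG2 stayed at places 1 and 2, MAL was at place 7 and SCUBE2 at 64. Over all 28 libraries with group means kept, VGLL1 and VSIG2 held the same places, while NIPAL1 was at place 821 and CAPN5 at 1141. SNX31, which is not part of that mean, had an r of 0.924 and PSCA one of 0.782. Among the 4 in the mean, UPK3A followed it least, at 0.837 over the 23 libraries and 0.957 over the 14 native ones, while UPK1A had 0.991 in both. KRT7 had 0.799, and EPCAM, the pan-epithelial protein, 0.350.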

How the data were processed

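The authors deposited raw read counts for each gene. The tools featureCounts 1.5.0-p3, HISAT2 2.0.5 and StringTie 1.3.3b are named in the submitters' processing notes. Per the labels' protocols the libraries were poly-A selected and directional (dUTP) and were read as pairs. Genome build, annotation and strand setting are not stated in the sources used here, so reads of overlapping genes cannot be separated. Gene lengths are the deposited ones.

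Library totals were 20975648 to 35669026 counts. Genes passed filterByExpr (minimum count 10) and were scaled by TMM. edgeR 4.0.16 in R 4.3.3 fitted 1 quasi-likelihood model with the 6 groups to all 28 libraries, and 12 contrasts were tested with Benjamini-Hochberg adjustment over 17177 genes at 0.05. The SE of a log2 fold change was taken back from the F value, and 95% intervals rest on it. Replicates are separate animals, by the codes in the labels. Those codes also pair the native bladder and graft of an animal, and the deviations of paired libraries from their group means correlated at -0.273 to 0.69. Ratios of uroplakins (0.5 counts added) were compared by two-sided exact permutation tests over libraries. Alternatives were DESeq2 1.42.0, its size factors, no filter, only the groups compared, the animal as a block, single libraries left out and, added after seeing the data, muscle-rich libraries left out. The tests were checked on simulated counts.

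The 6 genes, the gene lists and the tests were chosen with earlier results of these data known. Of each list, at most 4 tested genes with the smallest p in the ileum comparison are named, and the 10 genes most like the uroplakins. KRT5, KRT8, KRT18, KRT19, MYH11, VPS33A and some other listed symbols are not analysed here. Secretory genes and the UPK3A to UPK1A ratio were chosen after seeing the data.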

Additional observations from a re-analysis of the deposited data

Results flagged for a closer look

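In 5 of the 36 sets formed by a gene and a group, the lowest library lay apart from the others by a Dixon test at 95%, which chance gives in about 1 of 20 sets. These were UPK1B in Entero native bladder 4 (13.99 CPM), UPK3A in PRS regenerated piece 2 (97.6 CPM), SNX31 in SIS regenerated piece 2 (4.11 CPM), PSCA in SIS regenerated piece 2 (77.5 CPM) and PSCA in PRS regenerated piece 2 (328 CPM). The smooth muscle markers of these 3 libraries summed to 77615, 82177 and 46676 CPM, and their part in the low values was not tested.

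The change from native bladder to graft differed between arms for all 6 genes when the SIS arm was set against the Entero arm, by an interaction contrast in edgeR. In this contrast 3.59% of the genes tested were called higher. The difference was 8.20 for UPK1A, 7.86 for UPK1B, 8.45 for UPK2, 8.04 for UPK3A, 8.85 for SNX31 and 8.41 for PSCA on the log2 scale. For the PRS arm against the Entero arm it passed for 5 genes, at 6.39 for UPK1A, 6.92 for UPK2, 7.52 for UPK3A, 7.34 for SNX31 and 8.34 for PSCA. There 1.56% of the genes tested were called higher, and with the animal as a block only 2 of the 6 passed.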

How the results depend on the processing

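The number of the 6 genes called was the same under each alternative in 11 of the 12 comparisons. In the change of the PRS arm against that of the Entero arm it was 2 with the animal as a replicate block, 4 with only the groups compared in the fit, 3 to 6 without single libraries, and 6 by DESeq2 and without muscle-rich libraries, against 5. Over all genes tested, the blocked fit called 675 genes for the change of the SIS arm against the Entero arm (1127 without the block) and 240 for the PRS arm (596 without it), and it changed no other count by over 1.5 times. DESeq2 called 1744 and 1176 genes there, 70 in SIS and 26 in PRS regenerated tissue against native bladder, 20 for the change of the PRS against the SIS arm, 15 between PRS and SIS regenerated tissue, and 64, 28 and 114 between the native bladders (SIS and PRS against Entero, PRS against SIS), where edgeR called 0. With only the groups compared in the fit, 368 genes were called for the change of the PRS against the Entero arm, 2326 for SIS regenerated tissue against ileum (3627 with all groups in the fit) and 1040 for PRS regenerated tissue (2399). Without single libraries the change of the PRS against the Entero arm gave 390 to 739 genes, PRS regenerated against native tissue 0 to 3, and SIS against Entero and PRS against SIS native bladder 0 to 1 each. The UPK1B to UPK3A difference in the SIS arm ran from -0.46 to 0.15 and the UPK1B to UPK1A difference in the Entero arm from -1.60 to 2.13 without single libraries, the latter resting on ileum grafts with 0 reads of a gene. With the animal as a block no ratio test could pass at 0.05. The smallest p that the exact sign-flip test allows was 0.0625 with 5 animals and 0.125 with 4. Leaving out muscle-rich libraries brought UPK1B past the threshold in the PRS against Entero comparison (log2 5.98, adjusted p = 0.0394).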

Other observations

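The 4 libraries with the highest UPK3A to UPK1A ratio come from 3 animals, and all 3 carry the letter M in their code. The letter stands in the codes of 6 of the 14 animals and of 10 of the 23 libraries other than ileum grafts, and the labels do not say what it means. The genes whose levels followed that ratio most closely over the 23 libraries, with group means taken out, were led by P2RX4, an ATP-gated channel (r = 0.912), and SRPR, the receptor of the signal recognition particle (r = 0.868). TF (transferrin), TFF3 (a trefoil peptide of mucus-making epithelia), TCN1 (a vitamin B12 carrier), TMEM214, C1RL, MAN1B1, GANAB and SLC6A20 came next, with r from 0.838 to 0.866. The ratio was chosen for its values in the same 4 libraries, and how far these r rest on them was not tested. TCN1 was at 305 CPM in PRS regenerated piece 4, 154 in PRS regenerated piece 3, 13.5 in PRS native bladder 4 and 15.7 in SIS regenerated piece 4. It was at most 0.708 CPM in the other 19 libraries. P2RX4 was at 51.8 CPM in PRS regenerated piece 4, 36.01 in PRS regenerated piece 3, 27.9 in PRS native bladder 4 and 23.6 in SIS regenerated piece 4, and at most 23.2 CPM in the other 19 libraries. SLC34A2, a phosphate transporter, was at 686 CPM in PRS regenerated piece 4, 263 in PRS native bladder 4, 31.3 in PRS regenerated piece 3 and 8.25 in SIS regenerated piece 4. It was at 14.5 CPM in Entero native bladder 2 and at most 0.550 CPM in the rest.

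MSLN, which marks mesothelium and some secretory epithelia, was at 282 CPM in SIS regenerated piece 4, 174 in PRS regenerated piece 3, 106 in PRS regenerated piece 4 and 44.2 in PRS regenerated piece 1. In the 14 native bladders it was at most 26.6 CPM, the value of PRS native bladder 4.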
